A study of Rattus norvegicus with 2 samples.

Results

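The genes described here encode 7 neuropeptide precursors, Gal, Nts, Tac1, Cck, Adcyap1, Nmu and Grp, and 3 receptors, Galr1, Tacr1 and Adcyap1r1. They were chosen by gene symbol, each symbol matched 1 gene, and together they hold 16 of the 26324 mRNA transcripts and 10 of the 22777 mRNA genes measured. Hypothalamic RNA of female Sprague Dawley rats was sequenced at 2 stages, prepubertal (postnatal day 25) and pubertal (postnatal day 35). The authors took rats in first estrus, judged by vaginal smears, as the pubertal material. The series names 3 hypothalamuses for each stage, the tables hold 1 column per stage, and how the animals were combined is not given in the sources used here. Each stage was therefore treated as 1 library, so that no value below has a replicate behind it and no p-value is given. Stage, age, estrous phase and library cannot be told apart in this design.

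Neuropeptides are cut from larger precursors, stored in dense-core vesicles and act on G protein-coupled receptors. Galanin (from Gal) lowers the excitability of many neurons and its gene is known to respond to estrogen, while neurotensin (Nts) is made in the preoptic area, the lateral hypothalamus and elsewhere. Tac1 encodes substance P and neurokinin A, Cck encodes cholecystokinin, and Adcyap1 encodes PACAP, whose receptors include Adcyap1r1, the PAC1 receptor. Nmu encodes neuromedin U, a peptide that reduces feeding, and Grp encodes gastrin-releasing peptide of the bombesin family. Galr1 and Tacr1 are receptors for galanin and for substance P.

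The start regions of 3 precursor genes of hypothalamic neurons are shown because they stand for the different outcomes described below: Gal differed most between the libraries among the precursors with more than 15 fragments, Tac1 differed slightly, and Nts differed by less than its counting error. The sequences are those of RefSeq on build GRCr8, run from 250 bases before to 50 bases after the annotated start, and were matched by symbol for 9 of the 10 genes (not for Cck). The Gal region is chr1:210084523-210084822, minus strand, that of Tac1 is chr4:36645333-36645632, plus strand, and that of Nts is chr7:39460839-39461138, minus strand. Capitals mark matches, on either strand, to TGACG (the half-site of the cAMP response element), TGAGTCA (the site of AP-1 factors), CACGTG (an E-box), TATAAA (the core of the TATA-box) or AGGTCA (the half-site of the estrogen response element).
Gal: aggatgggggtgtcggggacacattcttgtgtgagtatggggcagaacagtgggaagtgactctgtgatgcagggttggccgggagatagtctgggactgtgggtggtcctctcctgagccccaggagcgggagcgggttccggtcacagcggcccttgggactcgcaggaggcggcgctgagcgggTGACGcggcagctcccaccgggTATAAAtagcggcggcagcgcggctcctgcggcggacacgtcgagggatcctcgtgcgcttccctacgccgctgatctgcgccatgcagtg
Tac1: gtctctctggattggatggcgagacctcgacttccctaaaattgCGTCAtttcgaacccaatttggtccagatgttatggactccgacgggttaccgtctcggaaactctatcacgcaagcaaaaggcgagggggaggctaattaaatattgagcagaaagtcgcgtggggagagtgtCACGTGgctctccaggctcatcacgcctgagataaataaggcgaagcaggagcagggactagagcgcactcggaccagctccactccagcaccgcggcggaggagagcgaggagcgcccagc
Nts: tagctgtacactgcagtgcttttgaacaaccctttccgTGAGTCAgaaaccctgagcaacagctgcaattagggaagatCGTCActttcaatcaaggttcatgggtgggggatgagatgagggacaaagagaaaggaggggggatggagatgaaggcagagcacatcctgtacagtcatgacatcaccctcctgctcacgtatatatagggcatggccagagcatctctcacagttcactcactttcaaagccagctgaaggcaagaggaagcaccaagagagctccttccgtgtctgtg
In Gal, TGACG starts 63 bases and TATAAA 41 bases before the start. In Tac1, the TGACG match starts 206 bases and CACGTG 72 bases before the start. In Nts, TGAGTCA starts 212 bases and the TGACG match 171 bases before the start. The matches in these 3 sequences do not overlap. Over the 9 regions, TGACG was found in 6, TATAAA in 4, and each of TGAGTCA and CACGTG and AGGTCA in 2. Of 33365 different RefSeq start regions of the same length, 21.2% hold TGACG, 14.2% TATAAA, 4.64% TGAGTCA, 6.43% CACGTG and 16.2% AGGTCA. A match describes the letters alone.

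Expression is given as FPKM, the number of sequenced fragments scaled by transcript length and library size, so that levels of genes of different length can be set side by side. Low FPKM of these tables fall on steps of 1 fragment, which allowed the number of fragments behind each value to be recovered. Among single-transcript genes between 600 and 3000 nt long with a recovered value below 6.5 fragments, 95.4% of 1430 values in the prepubertal and 95.05% of 1555 values in the pubertal library lay within 0.1 of a whole number. The steps correspond to about 20700000 prepubertal and 16200000 pubertal fragments. Intervals are exact at 95%, Poisson for 1 library and conditional on the summed fragments for a ratio. They cover counting error only, not the spread between rats.

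**Figure D1:**
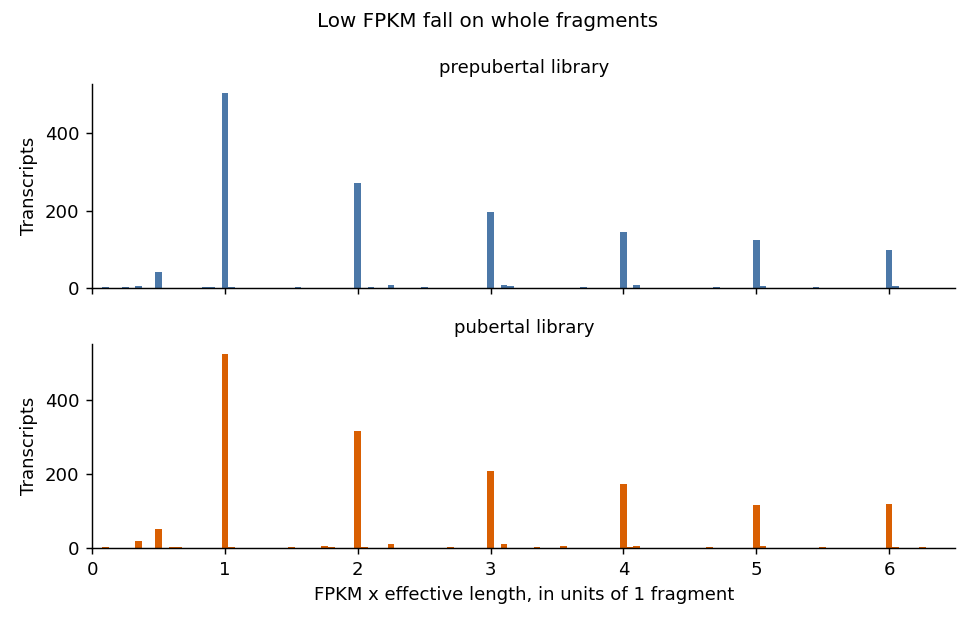
Histograms of FPKM times effective length (transcript length less 256 nt in the prepubertal and 252 nt in the pubertal library) in units of 1 fragment, for single-transcript genes of 600 to 3000 nt; the y axis counts transcripts. In both libraries nearly all low values stand at whole fragments, with small peaks at values below 1.

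In both libraries Cck had the highest level of the 10 genes, at 257 FPKM before puberty and 242 FPKM at puberty. It made up 53.1% of the summed FPKM of the 10 genes before puberty and 48.2% at puberty. Tac1 was second with 62.8 and 72.0 FPKM, and Adcyap1r1 came next with 55.7 and 60.3 FPKM. Nmu was lowest, at 1.17 and 0.540 FPKM. Among the 14029 genes with at least 1 FPKM in 1 library or more, Cck lay at percentile 96.9 of the prepubertal levels and Nmu at percentile 3.25. All 10 genes passed this filter, Nmu through the prepubertal library alone.

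Neighbours in the order of levels were compared by their counting intervals. Before puberty, the intervals of Gal and Nts overlapped, as did those of Galr1 and Grp, and the other 7 of 9 neighbouring pairs were apart. At puberty, Gal still followed Adcyap1r1 in the order, now with overlapping intervals (51.1 to 62.2 FPKM for Gal and 57.9 to 62.8 FPKM for Adcyap1r1), and it no longer overlapped Nts (34.9 to 40.9 FPKM). Grp and Galr1 had changed places, again with overlapping intervals.

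**Figure D2:**
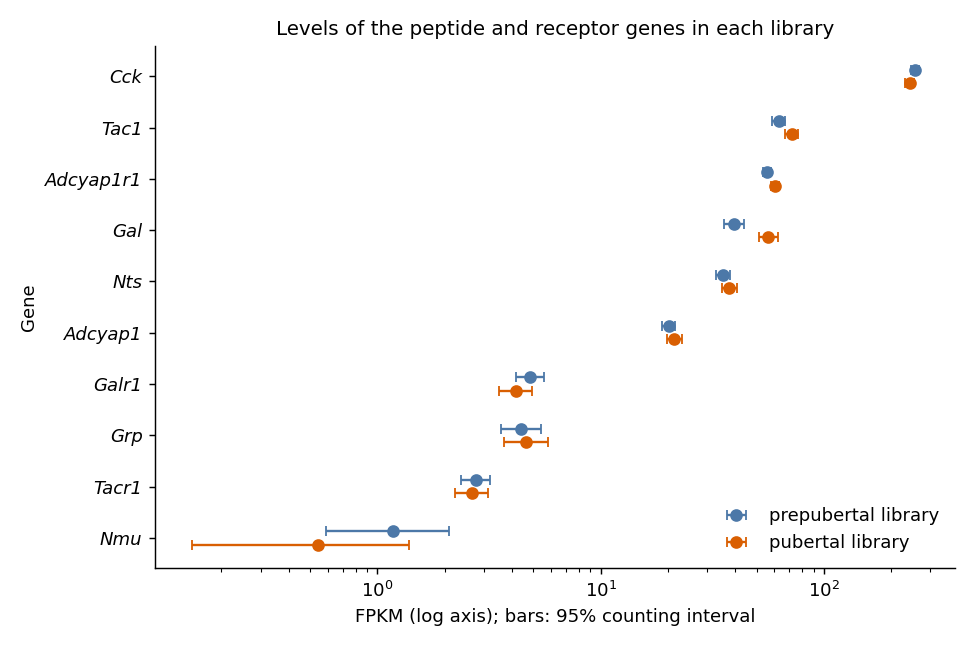
FPKM of the 10 genes on a log axis, ordered by the prepubertal level, with a point for each library and bars for the 95% Poisson counting interval. Cck stands above 200 FPKM in both libraries, Gal, Tac1 and Adcyap1r1 have intervals that are apart, by the widest gap in Gal, and the widest intervals are those of Nmu.

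The difference between the stages is given as the ratio of pubertal to prepubertal FPKM and as log2 of (FPKM + 1) at puberty over (FPKM + 1) before puberty, in which low values are drawn towards 0. Of the 10 genes, 0 were at least 1.5-fold higher and 0 at least 1.5-fold lower in FPKM + 1. Over the 14029 genes, 2% were at least 1.5-fold higher and 2.65% at least 1.5-fold lower, so a count of 0 among 10 is near this background. The count was also 0 at a 2-fold threshold, against 1.1% of these genes in either direction. Without the filter on low values, 3.29% of all 22777 genes were past 1.5-fold in either direction. With a pseudocount of 0.1 in place of 1, 1 of the 10 genes (Nmu) was past 1.5-fold, against 7.86% of the 14029 genes. With the highest transcript in place of the sum, 1 of 10 (Galr1) was, against 4.93%. The log2 ratio was above 0 in 6 genes and below 0 in 4, with a median of 0.07, against -0.01 over the 14029 genes. With the pubertal library scaled so that Actb (beta-actin, a reference gene in quantitative PCR) had the same level in both, called equal Actb from here on, 9 of the 10 log2 ratios were above 0 and 2 genes, Gal and Tac1, were at least 1.5-fold higher. By that scaling the median of the 14029 genes was itself 0.36, and 16.5% of them were at least 1.5-fold higher and 0.87% at least 1.5-fold lower.

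Gal had the highest log2 ratio of the 10 genes, and of the precursors with more than 15 fragments it was the one farthest from 0. The level of Gal (ENSRNOG00000015156) was 39.6 FPKM before puberty, from 364 fragments, and 56.5 FPKM at puberty, from 409 fragments of the smaller library. The ratio was 1.43 (counting interval 1.23 to 1.65) and the log2 ratio 0.50, which became 0.90 with equal Actb and 0.56 with equal medians. The prepubertal interval (35.6 to 43.9 FPKM) and the pubertal interval did not overlap. A log2 ratio of this size or larger in either direction was found in 7.11% of the 14029 genes. The value of Gal lay at percentile 97.1 of all log2 ratios and at percentile 98.2 of the genes between 20 and 100 FPKM.

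Galanin is also made in the anterior pituitary, so pituitary markers were set beside Gal. Of 9 such markers, 5 reached 1 FPKM in a library, 2 of these (Prl and Gh1, which passed the filter through the pubertal library alone) were at least 1.5-fold higher at puberty and 0 lower, and the summed level of the list was 32.4 FPKM before puberty and 45.1 FPKM at puberty. Most of this sum was Cga, the common subunit of glycoprotein hormones, at 24.6 and 29.97 FPKM. Prl (prolactin) was listed at 0 before puberty and at 3.40 FPKM at puberty, Gh1 (growth hormone) at 0.872 and 4.09 FPKM, and Fshb at 0 and 0.396 FPKM. In the other direction, Lhb was at 1.44 and 1.29 FPKM, Tbx19 at 0.653 and 0.592 FPKM, and Pou1f1 at 0.155 and 0.0565 FPKM. The hypothalamic and the cortical markers described further on also differed between the libraries, with median log2 ratios of 0.24 and -0.57. The part of any of these lists in the difference of Gal was not tested. In RNA of a whole tissue, more cells of a type and more RNA per cell cannot be told apart.

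The galanin receptor gene Galr1 (ENSRNOG00000016654) had 4.82 FPKM before puberty and 4.18 FPKM at puberty, from 188 and 135 fragments, a ratio of 0.866 (0.689 to 1.09). Its log2 ratio of -0.17 turned to 0.17 with equal Actb. Within a library, the level of Gal was 8.21 times that of Galr1 before puberty and 13.5 times at puberty. Of the 3 genes with several transcripts of at least 1 FPKM, Galr1 was the one with transcripts past 1.5-fold in opposite directions. The 2023 nt transcript was estimated at 2.50 FPKM before puberty and 0.109 FPKM at puberty, about 92 and 3 fragments, a ratio of 0.0438 (0.00843 to 0.126). In contrast, the 2251 nt transcript was estimated at 2.33 and 4.07 FPKM, about 96 and 132 fragments, a ratio of 1.75 (1.34 to 2.31). The shorter transcript thus made up 51.8% of the gene's FPKM before puberty and 2.62% at puberty. Transcripts past 1.5-fold in opposite directions were found in 4.87% of 1088 genes with several transcripts of at least 1 FPKM, and in 1 of the 3 such genes here. The transcripts of a gene share fragments and Cuffdiff divides them by estimate, an error that these intervals do not cover.

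Tac1 (ENSRNOG00000007374), the substance P precursor gene, had 62.8 FPKM before puberty and 72.0 FPKM at puberty, from 967 and 872 fragments. The ratio was 1.15 (1.05 to 1.26) and the log2 ratio 0.19, at percentile 81.9 of all genes. Rat Tac1 is known to be spliced into forms that all encode substance P but not all neurokinin A. The files hold 3 transcripts of 978, 987 and 1032 nt, so that the shorter ones lack 54 and 45 nt of the longest. Their exons were not analysed here. The 987 nt transcript was the main one with 37.6 and 45.2 FPKM, a ratio of 1.20 (1.07 to 1.35), and made up 59.9% and 62.8% of the gene's FPKM. The 1032 nt transcript had 17.2 and 20.4 FPKM, a ratio of 1.19 (0.997 to 1.41). The 978 nt transcript had 7.92 and 6.38 FPKM, a ratio of 0.805 (0.593 to 1.08), and its share was 12.6% before puberty and 8.86% at puberty. All 3 transcripts kept their order of levels between the libraries.

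Tacr1 (ENSRNOG00000005853), the receptor for substance P, was at 2.76 FPKM before puberty and 2.65 FPKM at puberty, from 181 and 136 fragments. The ratio was 0.961 (0.763 to 1.21), and the log2 ratio of -0.04 became 0.26 with equal Actb. The level of Tac1 was 22.7 times that of Tacr1 before puberty and 27.1 times at puberty. Tac1 is also abundant in the striatum, which lies in front of the hypothalamus. Of 10 striatal markers, all of at least 1 FPKM in a library, 0 were past 1.5-fold in either direction (3 with equal Actb), 4 had a log2 ratio above 0 and 6 below 0 with a median of -0.13 (0.17 with equal Actb), and their summed level was 83.4 and 79.5 FPKM. Their part in the level of Tac1 was not tested.

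For PACAP, the receptor gene stood above the precursor gene. Adcyap1 (ENSRNOG00000049882) had 20.2 FPKM before puberty and 21.4 FPKM at puberty, from 779 and 648 fragments, a ratio of 1.06 (0.956 to 1.18). Adcyap1r1 (ENSRNOG00000012098) had 55.7 and 60.3 FPKM, from 2746 and 2323 fragments, a ratio of 1.08 (1.02 to 1.14), whose interval lay above 1 but no longer did so with the libraries scaled to equal totals. The receptor level was 2.76 times the precursor level before puberty and 2.82 times at puberty, the reverse of galanin and substance P, where the precursor was higher.

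Adcyap1r1 is known to be spliced with or without short cassettes in an intracellular loop that couples to G proteins. The 4 transcripts listed are 2597, 2681, 2681 and 2765 nt long, that is 84 or 168 nt longer than the shortest. The shortest was the main one, with 32.7 FPKM before puberty and 37.8 FPKM at puberty, a ratio of 1.16 (1.08 to 1.24), and it made up 58.7% and 62.7% of the gene's FPKM. One 2681 nt transcript had 22.0 and 21.8 FPKM, a ratio of 0.989 (0.903 to 1.08). The other 2681 nt transcript was rare, with 0.365 and 0.726 FPKM from about 18 and 29 fragments. The 2765 nt transcript was estimated at 0.606 FPKM, about 32 fragments, before puberty and was listed at 0 at puberty. The counting interval of its ratio was 0 to 0.156, without the error of dividing fragments between transcripts. Neither of these 2 rare transcripts was above 1.20% of the gene's FPKM in a library, and the cassettes were not assigned to them here.

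**Figure D3:**
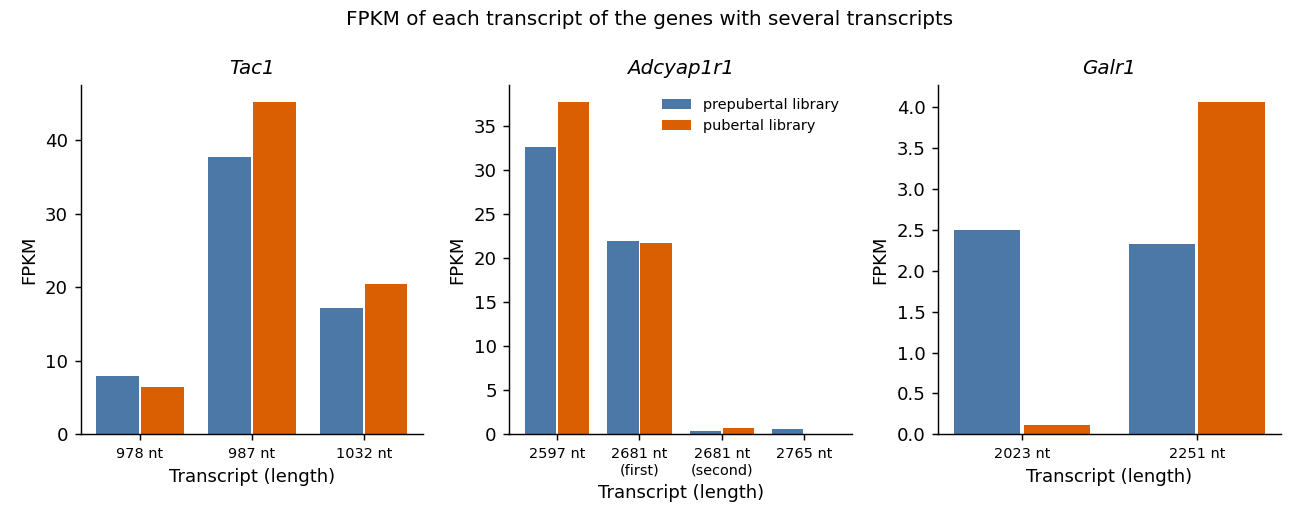
Bars of the FPKM estimated for each transcript of Tac1, Adcyap1r1 and Galr1 in the prepubertal and the pubertal library, labelled by transcript length; the y axes start at 0 and differ between genes. The order of the transcripts of Tac1 is the same in both libraries, while the 2023 nt transcript of Galr1 is near 0 at puberty alone.

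Cck (ENSRNOG00000019321) had 257 FPKM before puberty and 242 FPKM at puberty, from 2378 and 1769 fragments. The ratio was 0.943 (0.887 to 1.004), and the log2 ratio of -0.08 became 0.32 with equal Actb. Cck is abundant in cortex, hippocampus and thalamus as well as in hypothalamic nuclei. Of 11 cortical and hippocampal markers in the tables, 7 reached 1 FPKM in a library, all 7 had a log2 ratio below 0 with a median of -0.57 (-0.28 with equal Actb), and 3 were at least 1.5-fold lower (2 past 1.5-fold with equal Actb and 6 with a pseudocount of 0.1). Their summed level was 127 FPKM before puberty and 66.3 FPKM at puberty. Slc17a7, the vesicular glutamate transporter of cortical neurons, was at 26.2 and 12.8 FPKM. Of 10 thalamic markers, 8 had a log2 ratio below 0 with a median of -0.29 (0.11 with equal Actb), 1 was at least 1.5-fold lower, and the summed level was 834 and 807 FPKM. The part of these tissues in the level of Cck was not tested.

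Nts (ENSRNOG00000004179) was at 35.5 FPKM before puberty and 37.8 FPKM at puberty, from 757 and 631 fragments, a ratio of 1.06 (0.955 to 1.18). The log2 ratio of Nts was 0.09, or 0.48 with equal Actb. Grp (ENSRNOG00000016999) was at 4.41 and 4.66 FPKM, from 93 and 77 fragments, a ratio of 1.06 (0.770 to 1.44). Both differed by less than counting error. Nmu (ENSRNOG00000002164) had 1.17 FPKM from 11 fragments before puberty and 0.540 FPKM from 4 fragments at puberty. The ratio of Nmu was 0.460 (0.107 to 1.56), an interval that holds 1.

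**Figure D4:**
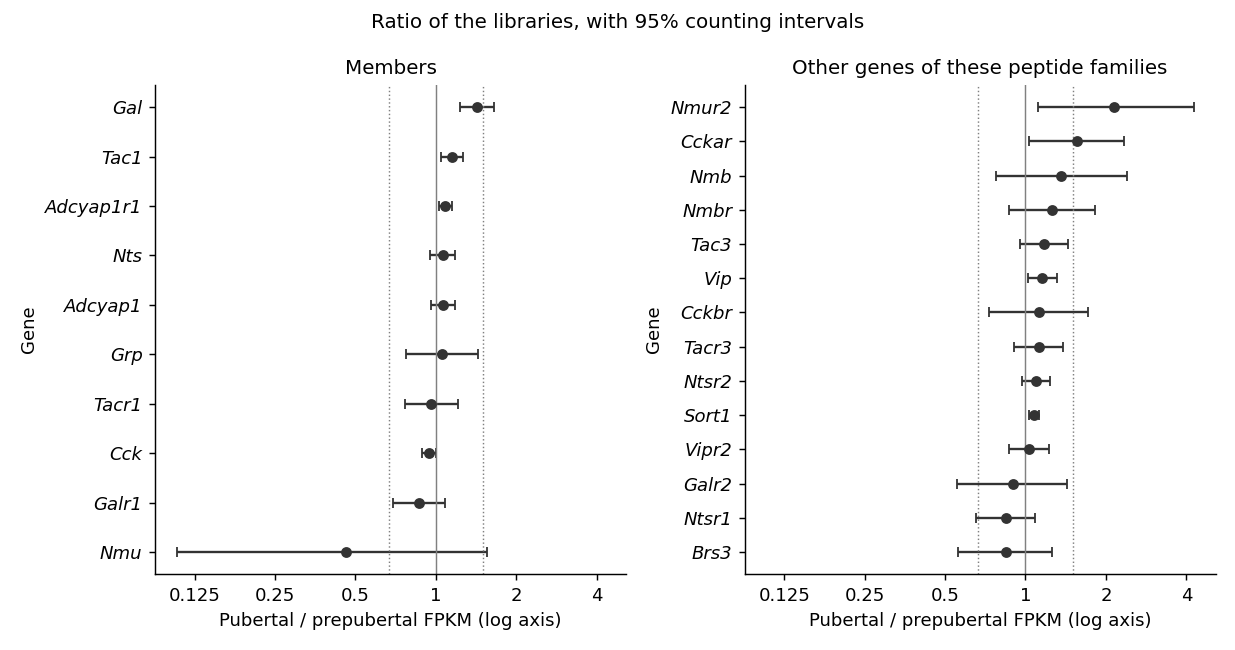
Ratio of pubertal to prepubertal FPKM on a log axis for the 10 members (left) and the 14 other genes of these families with at least 1 FPKM in a library (right), with bars for the 95% counting interval; the solid line marks 1 and the dotted lines 1.5-fold. Gal lies to the right of 1 by more than its interval, and the interval of Nmu spans both dotted lines.

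Counting intervals of the ratio lay above 1 for 3 of the 10 genes (Gal, Tac1 and Adcyap1r1) and below 1 for 0. Over the 14029 genes they lay above 1 for 19.4% and below 1 for 23.5%, so that the 3 of 10 are near this background too. Of the genes between 20 and 100 FPKM, the range of Gal, Nts, Tac1, Adcyap1 and Adcyap1r1, 53.6% had an interval that left out 1, while 2.22% differed by 1.5-fold or more. The 3 intervals remained above 1 with equal medians, where 26.5% of the 14029 genes had such an interval. With equal totals that of Adcyap1r1 did not, against 13.3% of the 14029 genes above 1. With equal Actb 8 of the 10 were above 1, and so were 69.7% of the 14029 genes.

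**Figure D5:**
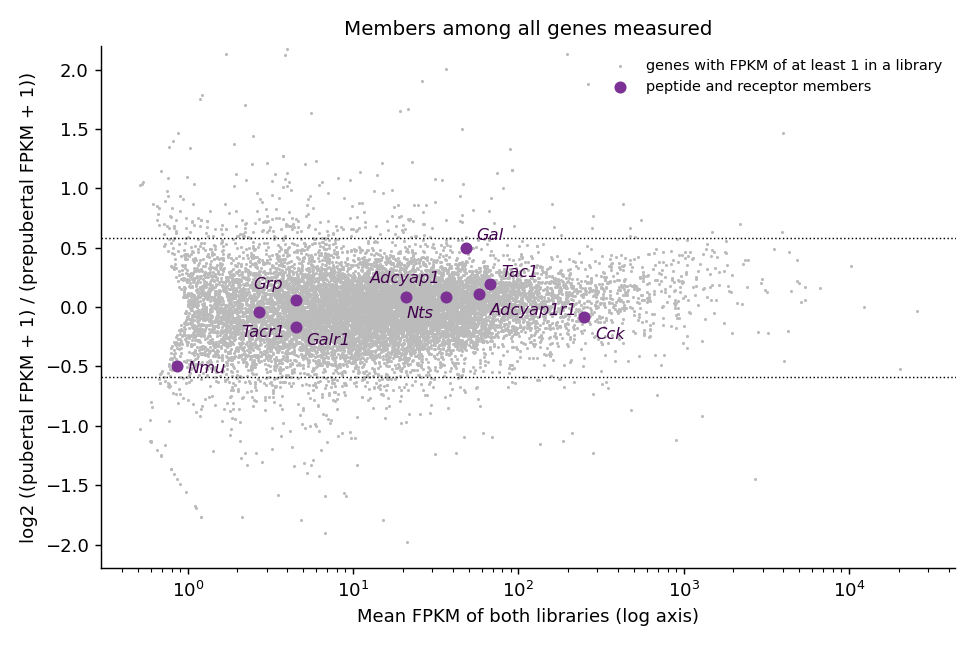
The log2 ratio of FPKM + 1 (pubertal over prepubertal) against the mean FPKM of both libraries on a log axis, for the 14029 genes with at least 1 FPKM in a library (grey; 23 lie outside the plotted range) and the 10 members (purple), with dotted lines at 1.5-fold. All members lie between the dotted lines, with Gal at 0.50 near the upper edge and Nmu at -0.50 among the low genes.

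Of 23 other ligands and receptors of these families, 22 were found by symbol and 14 reached 1 FPKM in a library. Of these 14, 0 were past 1.5-fold in either direction, 11 had a log2 ratio above 0 and 3 below 0, and the median was 0.13, or 0.51 with equal Actb. Among the ligands, Tac3, the neurokinin B precursor gene, was at 20.7 and 24.3 FPKM, a ratio of 1.17 (0.957 to 1.44). Vip, whose peptide belongs to the family of PACAP, was at 19.7 and 22.8 FPKM, a ratio of 1.16 (1.02 to 1.32). Nmb, the neuromedin B precursor gene, was at 3.22 and 4.37 FPKM from 27 and 29 fragments. None of these ligands differed by as much as 1.5-fold.

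Among the receptors, the neurotensin receptor gene Ntsr2 stood at 27.6 and 30.1 FPKM and Ntsr1 at 2.18 and 1.84 FPKM. The highest level of the list was that of Sort1, encoding sortilin, a sorting receptor that binds neurotensin, with 92.1 and 98.9 FPKM and a ratio of 1.07 (1.03 to 1.12). The ratios farthest above 1 rested on few fragments. Nmur2, a neuromedin U receptor gene, passed the filter through the pubertal library alone. It was at 0.729 and 1.57 FPKM from 16 and 27 fragments, a ratio of 2.15 (1.12 to 4.27). Cckar, a cholecystokinin receptor gene, was at 1.78 and 2.76 FPKM from 46 and 56 fragments, a ratio of 1.55 (1.03 to 2.35). On the FPKM + 1 scale the log2 ratios of Nmur2 and Cckar were 0.57 and 0.44, within 1.5-fold. Cckbr was at 1.27 and 1.43 FPKM.

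The neurokinin B receptor gene Tacr3 was at 5.09 and 5.69 FPKM, Vipr2 at 4.67 and 4.82 FPKM, and the neuromedin B receptor gene Nmbr at 4.43 and 5.57 FPKM. Brs3, an orphan receptor of the bombesin family, was at 2.79 and 2.35 FPKM. Galr2 is listed under 2 gene identifiers, so that its fragments can have been split, and the higher one was at 2.42 and 2.18 FPKM. The counting interval held 1 for each of these 5 genes.

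The tissue was checked with 20 hypothalamic peptide and transcription factor genes, of which 19 reached 1 FPKM in a library. They included Pmch at 1675 and 2723 FPKM and Oxt at 411 and 686 FPKM. In this list 3 genes, Pmch, Oxt and Kiss1, were at least 1.5-fold higher at puberty and 0 lower, 15 of 19 log2 ratios were above 0, and the median was 0.24. Over the 14029 genes, 2% were at least 1.5-fold higher. Kiss1, the kisspeptin precursor gene, was at 1.46 and 3.78 FPKM from 12 and 26 fragments, a ratio of 2.59 (1.21 to 5.41). With equal Actb, 11 of the 19 were past 1.5-fold and the median was 0.61, against 17.4% and 0.36 over the 14029 genes. Markers of the choroid plexus (6 of 8 above the filter), of oligodendrocytes (10 of 10) and of immature neurons (9 of 9 in the tables) had 0 genes past 1.5-fold in either direction and medians of -0.03, -0.04 and -0.09, which became 0.26, 0.36 and 0.32 with equal Actb, where 0, 4 and 3 genes were past 1.5-fold.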

How the data were processed

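Total RNA of rat hypothalamus was depleted of ribosomal RNA and made into strand-specific libraries by the authors. They aligned the reads with TopHat 2.0.9, assembled transcripts with Scripture and Cufflinks 2.1.1, and estimated transcript levels with Cuffdiff 2.1.1. The deposited values are FPKM per transcript, with 1 column per stage. The genome build is Rnor_5.0 per the labels, while the methods name an annotation of Rnor_6.0. The lncRNA sequences and the p-values, q-values and log2 ratios of the authors' comparison table were not used. FPKM of 13 mRNA transcripts, 0 of them of the genes described, differed between the deposited tables, and the mRNA table was used.

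FPKM of the transcripts of a gene were summed. Ratios used a pseudocount of 1, and background counts used genes with at least 1 FPKM in 1 library or more. Fragment numbers were taken from the steps of low FPKM and the method was tested on simulated data. The genes and lists were chosen with earlier results of these data known. Named beyond the 10 genes were members of their families with at least 1 FPKM, and of each other list only genes among the 3 highest and the 2 with the log2 ratio farthest from 0, except the pituitary markers Fshb, Lhb, Tbx19 and Pou1f1, named after their values were seen. Alternatives were a pseudocount of 0.1, 4 scalings, a 2-fold threshold, other filters, the highest transcript of a gene, and the FPKM of the comparison table. Scripts ran under Python 3.11.15, with pandas 2.3.3 and numpy 2.4.6 for the tables, scipy 1.17.1 for the intervals, and plots drawn by matplotlib 3.10.9.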

Additional observations from a re-analysis of the deposited data

How the results depend on the processing

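The median log2 ratio of the 10 genes, 0.07, became 0.44 with equal Actb, and lay between 0.02 and 0.12 under the other 6 settings. The count of genes past 1.5-fold, 0 as reported, was 1 with a pseudocount of 0.1 (Nmu, log2 ratio -0.99, against 7.86% of the 14029 genes). It was 2 with equal Actb (Gal and Tac1, against 17.4%). It was 1 when the highest transcript stood for a gene (Galr1, log2 ratio 0.61, against 4.93%), and it stayed at 0 at a 2-fold threshold and with no filter. For the 14 other genes of these families the count was 0 as reported. With a pseudocount of 0.1 it was 2, against 7.86% of the 14029 genes, and with equal Actb it was 6, against 17.4%. Of the log2 ratios of the single genes, 8 of 10 left their counting interval with equal Actb, 2 with the highest transcript, 1 with a pseudocount of 0.1, and 0 under each of the other 4 settings. Why Actb differed between the libraries was not tested. No paired analysis was possible because each stage has 1 library. Values under about 15 fragments are limited by depth, among them those of Nmu, the 2023 nt transcript of Galr1 at puberty, Dpp4 at puberty, Kiss1 before puberty and several pituitary markers.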

Other observations

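The lists of genes that make and break down these peptides had median log2 ratios below 0 as deposited and above 0 with equal Actb. Of 7 processing genes in the tables, 5 had a log2 ratio below 0 and the median was -0.20, or 0.15 with equal Actb. Cpe, which trims peptides after cleavage of the precursor, was at 854 FPKM before puberty and 610 FPKM at puberty, a ratio of 0.714 (counting interval 0.701 to 0.727). The log2 ratio of Cpe was -0.49, or -0.08 with equal Actb. Of 10 peptide-degrading enzymes with at least 1 FPKM in a library, 8 had a log2 ratio below 0. Of the 10, 1 (Dpp4) was at least 1.5-fold lower, against 2.65% of the 14029 genes. Dpp4 was at 1.05 and 0.311 FPKM from 43 and 10 fragments and passed the filter through the prepubertal library alone. The median of the 10 enzymes was -0.12, or 0.28 with equal Actb.

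Of 9 estrogen-responsive or estrogen signalling genes with at least 1 FPKM in a library, 5 had a log2 ratio above 0 and 1, Kiss1, was at least 1.5-fold higher, and the median was 0.08. With equal Actb, 3 genes were past 1.5-fold and the median was 0.46, against 17.4% and 0.36 over the 14029 genes. Ncoa1, a coactivator of steroid receptors and the highest of the list, was at 16.2 and 14.4 FPKM, a ratio of 0.886 (0.821 to 0.954), with a log2 ratio of -0.16 that turned to 0.22 with equal Actb. Esr2, the estrogen receptor beta gene, was at 0.925 and 1.56 FPKM from 36 and 48 fragments, a ratio of 1.68 (1.07 to 2.67). It passed the filter through the pubertal library alone. Of 10 reference genes used in quantitative PCR, 8 had a log2 ratio above 0, and Actb was among the 2 below 0, with 763 FPKM before puberty and 576 FPKM at puberty.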
